A study of Mus musculus with 6 samples.

Results

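The Mos-MAPK kinases form a cascade that takes part in cytostatic factor, the activity that holds the mammalian egg at metaphase II. Whether each kinase of the cascade is needed for that arrest was not examined. The 7 genes described here, chosen by gene name, were Mos, the MEK genes Map2k1 and Map2k2, the ERK gene Mapk3, and the RSK genes Rps6ka1, Rps6ka2 and Rps6ka3, of 22416 genes measured. All 7 were in the table and all 7 passed the filter, a mean FPKM of 1 or more. FPKM is the number of footprint fragments scaled by coding length and by the library's total reads, so levels can be set against each other between genes.

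Ribo-lite, a form of ribosome profiling for small numbers of cells, had been applied to mouse oocytes to ask how folded G-rich RNA, the RNA G-quadruplex (rG4), bears on translation during meiotic maturation. The 6 libraries formed 3 groups of 2: fully grown germinal vesicle oocytes (WT_FGO), control oocytes that had reached metaphase II (WT_MII), and oocytes at that same stage after treatment (Treat_MII). All were wild type, and by the study's methods the oocytes came from C57BL/6 females of 4 weeks primed with 5 IU of PMSG 44 h before collection, with 500 oocytes pooled in each library. The labels call the last group only treated. In the study's methods the agent is BYBX, a small fluorescent rG4 ligand, and controls received its solvent DMSO. The study reports that polar body emission fell as the BYBX dose rose, and that treated metaphase II oocytes had abnormal spindles. Between Treat_MII and WT_MII, a difference in stage make-up cannot be told apart from an effect of the ligand on footprints.

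Mos is a germ-cell serine/threonine kinase whose mRNA is stored silent in the immature oocyte and translated after meiosis resumes. It phosphorylates the MEK kinases, which phosphorylate ERK kinases such as ERK1 (Mapk3), which in turn activate the RSK kinases. Oocytes lacking Mos fail to hold metaphase II arrest and activate without sperm.

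Footprints on Mos and Map2k1 rose during control maturation, while those on Mapk3 fell. Footprints on Mos averaged 42.6 ± 16.6 FPKM (SD, n = 2) in WT_FGO and 1317 ± 221 FPKM (SD, n = 2) in WT_MII. Map2k1 went from 33.8 ± 3.07 to 304 ± 131 FPKM and Mapk3 from 245 ± 33.8 to 26.6 ± 2.51 FPKM (SD, n = 2 each). These 3 were called at an adjusted p under 0.05 (limma with Benjamini-Hochberg adjustment over all 15129 tested genes), against 6.76% of all tested genes in the same comparison. None of the 7 passed that test between Treat_MII and WT_MII.

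The libraries were shallow and unequal. The library total behind the FPKM was inferred from the size of 1 read in the deposited values. It came to 94309 and 107251 in WT_FGO, 164972 and 230907 in WT_MII, and 331304 and 275604 in Treat_MII. Between 48.2% and 57.2% of genes were listed at 0 in a library. A single read in 1 kb of coding sequence was therefore worth 10.6 and 9.32 FPKM in WT_FGO but 3.02 and 3.63 FPKM in Treat_MII. All 10 oocyte markers, such as Zp3 and Gdf9, had footprints in every library, with a sum of 20757 to 58866 FPKM. The 12 granulosa and cumulus cell markers summed to 104 to 153 FPKM in 5 libraries and to 1231 FPKM in WT_FGO replicate 2, where Inha, which encodes the alpha subunit of inhibin, held 747 FPKM. The 4 blood markers summed to 49.5 and 64.5 FPKM in WT_FGO, from few reads, and to at most 9.38 FPKM elsewhere, with Hbb-bs at 0 in all 6. Calls against the WT_FGO group are also given below without its replicate 2. In pooled oocytes, fewer cells of a type and less RNA per cell cannot be told apart, nor can a change in mRNA amount from one in ribosomes per mRNA, since no mRNA library was analysed here.

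The sequences shown next mark where the cascade passes its signal on and where the mRNA ends, the region read by the machinery that lengthens poly(A) tails in oocytes. MEK is switched on when a pair of serines in its activation segment is phosphorylated, in the oocyte by Mos. ERK is switched on when MEK phosphorylates the threonine and tyrosine of a Thr-Glu-Tyr motif. The stretches of 30 coding bases below hold these codons in capitals, on the strand of the mRNA, from the GENCODE M21 transcripts of GRCm38 (the assembly called mm10 by the submitters). They lie at chr9:64193720-64193749 (minus strand, Map2k1), chr10:81119334-81119363 (plus strand, Map2k2) and chr7:126763449-126763478 (plus strand, Mapk3), each within a single coding exon.
Map2k1: attgacTCTatggccaacTCCttcgtgggc
Map2k2: atcgacTCCatggccaacTCGtttgtaggg
Mapk3: ggctttctgACGGAGTATgtggccacacgc

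Over these 30 bases Map2k1 and Map2k2 differed at 6 positions. Across the coding sequence, 3.64% of the 28-base words of Map2k1 were also found in another gene, which was Map2k2. For Mapk3 the share was 8.87%, in pseudogene-like gene models and Mapk15, and for Mos none was shared. The authors' handling of reads from shared words is not given in the sources used here.

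Mos is a single-exon gene on the minus strand at chr4:3870657-3872105, and its mRNA of 1449 bases has a 5′-UTR of 291 and a 3′-UTR of 126 bases. The first and second WT_FGO libraries held 30.9 and 54.4 FPKM of Mos, from 3 and 6 reads. WT_MII held 1160 and 1473 FPKM, from 197 and 350 reads. Treat_MII held 1669 and 1573 FPKM, from 569 and 446 reads. Both metaphase II groups lay far above WT_FGO without overlap. Mos ranked 3361st and 2355th of all genes in WT_FGO, and between 66th and 79th in the 4 metaphase II libraries.

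The maturation difference of Mos was 4.96 ± 0.34 (SE) in log2(FPKM + 1), with an adjusted p of 0.00194 (limma), the 203rd largest rise of 15129 tested genes. Without WT_FGO replicate 2, the library with the highest sum of granulosa and cumulus markers, it was 5.36. The pooled reads, 547 against 9, gave a 30.9-fold higher read rate in WT_MII than in WT_FGO, with a 95% interval of 16.2 to 68.0 (exact conditional method, covering counting error only). The call turned on which groups entered the fit: fitted with WT_FGO and WT_MII alone the adjusted p of the same difference was 0.116. Without Treat_MII replicate 1 or without Treat_MII replicate 2 it was 0.104.

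**Figure D1:**
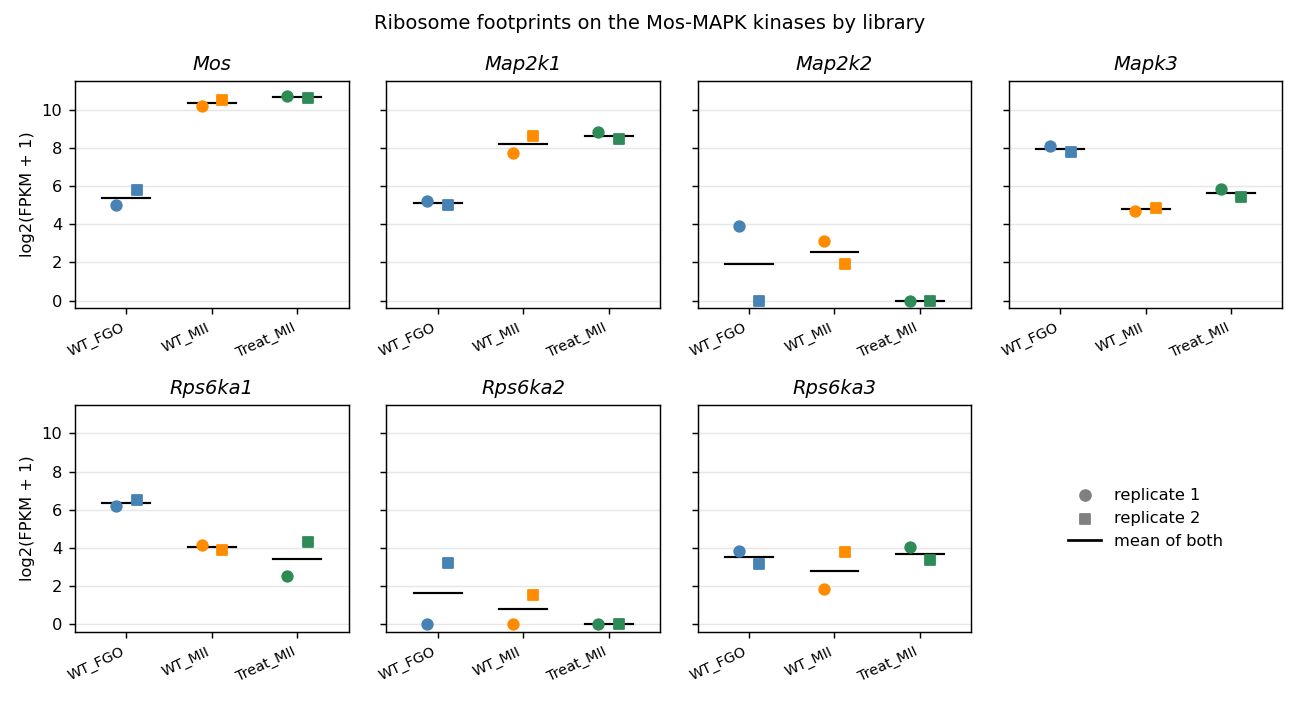
Footprint level of each kinase on the log2(FPKM + 1) scale (vertical axis) in the 3 groups, with circles for replicate 1, squares for replicate 2 and a bar at the mean of both. Mos and Map2k1 sit higher in both metaphase II groups than in WT_FGO, Mapk3 and Rps6ka1 sit lower, and Map2k2 and Rps6ka2 are at 0 in both Treat_MII libraries.

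Map2k1 encodes MEK1, the kinase directly below Mos, and lies on the minus strand at chr9:64185770-64253631. In WT_FGO it had 36.0 and 31.6 FPKM, from 4 reads each. In WT_MII it had 211 and 397 FPKM, from 41 and 108 reads. In Treat_MII it had 448 and 351 FPKM, from 175 and 114 reads. Both metaphase II groups lay above WT_FGO, and they overlapped each other.

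The maturation difference of Map2k1 was 3.06 ± 0.42 (SE), with an adjusted p of 0.0142 (limma), and the read rate was 9.48-fold higher in WT_MII (95% interval 4.69 to 22.4). This call was less firm than that of Mos. It did not pass without WT_FGO replicate 1 (3.15, adjusted p = 0.0694), without WT_FGO replicate 2 (2.97, adjusted p = 0.0782), or without Treat_MII replicate 1 or Treat_MII replicate 2 (3.06, adjusted p = 0.118 and 0.116). The genes Uchl4 and Gm48855 overlap Map2k1 on the opposite strand, and whether the counting used strand is not given in the sources used here.

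The paralog Map2k2, which encodes MEK2 (chr10:81105915-81133975, plus strand), was scarcely detected. Its level was 13.8 and 0 FPKM in WT_FGO and 7.87 and 2.81 in WT_MII, and it was at 0 in both Treat_MII libraries, with at most 2 reads in any library. A count of 0 allows up to 3 reads, which here averages 6.47 FPKM over the Treat_MII libraries. No fold is given, since every library lay under 3 reads. In the metaphase II libraries nearly all MEK footprints were thus those of Map2k1.

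Mapk3 encodes ERK1 (chr7:126759601-126765819, plus strand). It held 269 and 221 FPKM in WT_FGO, from 31 and 29 reads, more than any other of the 7 kinases at that stage. In WT_MII it held 24.8 and 28.4 FPKM, from 5 and 8 reads. In Treat_MII it held 56.9 and 41.6 FPKM, from 23 and 14 reads. The 3 groups did not overlap, with WT_FGO highest and WT_MII lowest.

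The maturation difference of Mapk3 was -3.15 ± 0.42 (SE), with an adjusted p of 0.0128 (limma), and the read rate in WT_MII was 0.110 times that in WT_FGO (95% interval 0.0556 to 0.203). Without WT_FGO replicate 2 the difference was -3.29, with an adjusted p of 0.0231. It did not pass without Treat_MII replicate 1 or without Treat_MII replicate 2, where the adjusted p was 0.104, nor with the compared groups alone, where it was 0.116.

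Ratios within a library do not depend on its depth. Map2k1 stood at 0.134 and 0.143 times Mapk3 in the WT_FGO libraries, at 8.49 and 14.0 times in WT_MII, and at 7.88 and 8.43 times in Treat_MII, so the MEK1 and ERK1 genes changed places in both metaphase II groups.

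Rps6ka1 encodes RSK1 (chr4:133847290-133887797, minus strand), a kinase activated by ERK. It held 72.0 and 89.4 FPKM in WT_FGO, from 17 and 24 reads. In WT_MII it held 17.0 and 13.8 FPKM, from 7 and 8 reads, and in Treat_MII 4.83 and 18.9 FPKM, from 4 and 13 reads. Both metaphase II groups lay below WT_FGO and overlapped each other. The maturation difference of -2.32 ± 0.74 (SE) did not pass the test (adjusted p = 0.131, limma), and without WT_FGO replicate 2 it was -2.16. It passed in voom on the recovered reads (-2.36, adjusted p = 0.00402) and among genes with at least 60 recovered reads (-2.32, adjusted p = 0.0347), the latter a filter chosen after seeing the data. The antisense gene Gm12977 overlaps Rps6ka1, as do the processed pseudogene Gm12985 and the snRNA gene Gm22523 on its own strand.

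Rps6ka2, which encodes RSK3 (chr17:7170115-7303315, plus strand), had 8.39 FPKM in WT_FGO replicate 2 and 1.95 FPKM in WT_MII replicate 2, from 2 reads and 1 read, and was at 0 in the other 4 libraries. Rps6ka3, which encodes RSK2 (chrX:159210307-159368244, plus strand), had 13.5 and 7.91 FPKM in WT_FGO, 2.57 and 12.9 in WT_MII, and 15.4 and 9.24 in Treat_MII. The groups overlapped for both genes, and neither passed the test in any of the 3 contrasts. For Rps6ka3 the maturation difference was -0.69, with a 95% interval of -2.98 to 1.60, on 1 to 12 reads per library.

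The order of the kinases by level differed between the stages. In WT_FGO, Mapk3 came first and Rps6ka1 second with no overlap, and Mos and Map2k1 followed with overlapping values. In WT_MII, the order by FPKM was Mos, Map2k1, Mapk3 and Rps6ka1 with no overlap between neighbours. Mapk3 and Rps6ka1 rested there on 5 and 8 against 7 and 8 reads, so their order is not firm. The values of Rps6ka3 and Map2k2 overlapped below all of these. In Treat_MII, Mos, Map2k1 and Mapk3 kept that order with no overlap, and Rps6ka1 and Rps6ka3 overlapped.

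Of the summed FPKM of the 7 kinases, Mos made up 7.10% and 13.2% in WT_FGO, 81.5% and 76.3% in WT_MII, and 76.1% and 78.9% in Treat_MII. Mapk3 made up 61.8% and 53.6% in WT_FGO, 1.74% and 1.47% in WT_MII, and 2.59% and 2.09% in Treat_MII. The sum itself was 435 and 413 FPKM in WT_FGO and between 1424 and 2194 FPKM in the metaphase II libraries. The higher sum at metaphase II lay in Mos and Map2k1, and the RSK genes together held less FPKM there than in WT_FGO.

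**Figure D2:**
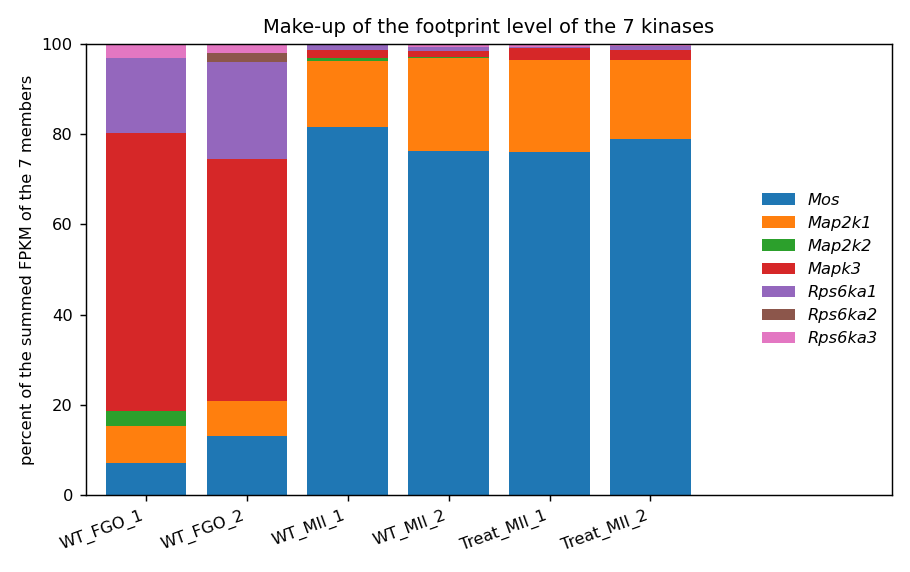
Percent of the summed FPKM of the 7 kinases (vertical axis) held by each of them in each of the 6 libraries. Mapk3 fills the largest section of each WT_FGO bar, and Mos fills 76.1% to 81.5% of each metaphase II bar.

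As a group, 2 of the 7 kinases rose during control maturation (Mos and Map2k1; 3.67% of all tested genes were called higher) and 1 fell (Mapk3; 3.09% were called lower). For 2 of the 7, WT_MII lay wholly above WT_FGO, against 15.3% of all tested genes, and for 2 wholly below, against 25.8%. At an unadjusted p under 0.05 there were 4 of the 7, against 22.8%. The median difference of the 7 was -0.69, beside -0.44 over all tested genes. With 7 genes these counts are a description of the kinases, not a statement on the pathway as a whole.

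**Figure D3:**
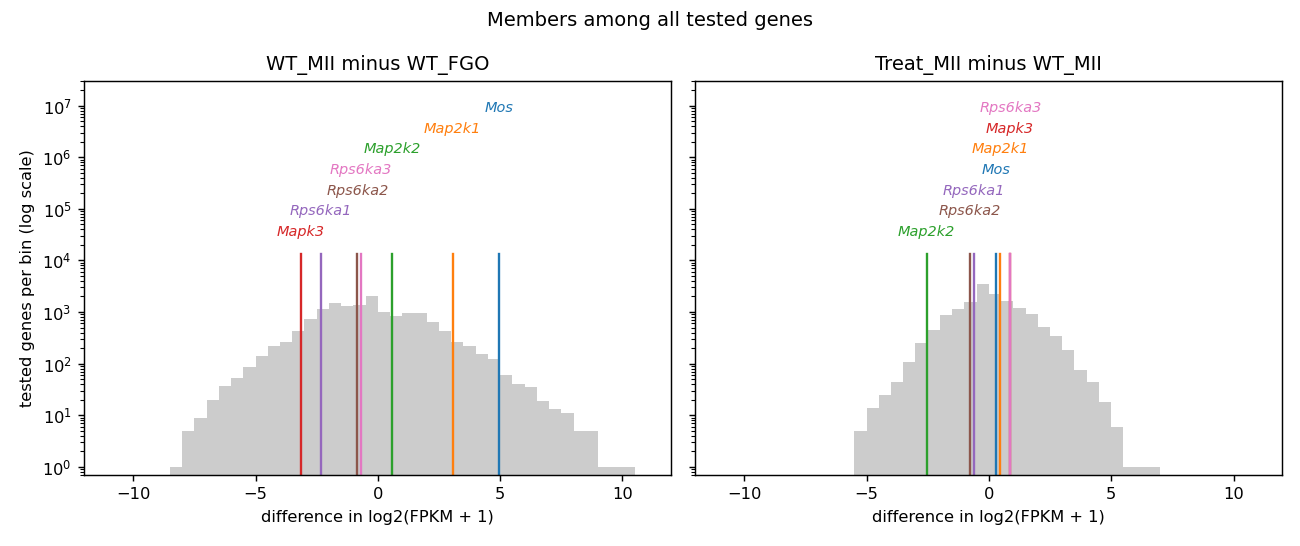
Number of tested genes (vertical axis, log scale) by difference in log2(FPKM + 1) in bins of 0.5 (horizontal axis), for maturation on the left and treatment on the right, with a line at the value of each kinase. In the maturation panel Mos at 4.96 has the 203rd largest rise and Mapk3 at -3.15 the 1097th largest fall. In the treatment panel every kinase but Map2k2 lies within 1 of 0.

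The treated oocytes were set against the control metaphase II oocytes, where a ligand effect cannot be told apart from a difference in stage make-up. None of the 7 passed the test between Treat_MII and WT_MII, where 0% of all tested genes did. At an unadjusted p under 0.05, 0 of the 7 and 881 of all tested genes (5.82%) would have passed, and voom on the recovered reads called 165 genes, with none of the 7 among them. Leaving out a WT_MII or a Treat_MII library also gave calls, again with none of the 7. They were mostly lower in Treat_MII with a WT_MII library left out, and all higher with a Treat_MII library left out. Their direction thus turned on which group was left with 1 library, so they are not read as treatment changes. The median difference of the 7 was 0.31, beside 0 over all tested genes, and 0.45 once Map2k2 and Rps6ka2, at 0 in Treat_MII and under the floor of 3 reads elsewhere, were left out.

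Both Treat_MII libraries lay above both WT_MII libraries for Mos and Mapk3, 2 of the 7 against 16.2% of all tested genes. They lay below for Map2k2, 1 of the 7 against 15.6%, on 3 reads in all. The treatment difference of Mos was 0.31, with a 95% interval of -0.52 to 1.14 (adjusted p = 0.977, limma), which covers both lower and higher values in the treated oocytes. The pooled Mos reads, 1015 against 547, gave a ratio of 1.21 with a counting interval of 1.09 to 1.35, an interval that leaves out the spread between libraries.

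For Map2k1 the treatment difference was 0.45, with a 95% interval of -0.56 to 1.47 (adjusted p = 0.956, limma), and it came to 0 without WT_MII replicate 1. For Mapk3 it was 0.85, with an interval of -0.17 to 1.87 (adjusted p = 0.932), and for Rps6ka1 it was -0.60, with an interval of -2.41 to 1.21 (adjusted p = 0.982). The Rps6ka1 value turned to 0.28 without Treat_MII replicate 1. These intervals are wide, and a missed threshold does not show that treated and control oocytes were alike.

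Against WT_FGO, the treated oocytes showed the same 3 kinases past the test: Mos and Map2k1 higher and Mapk3 lower. Mos differed by 5.27 ± 0.34 (SE) with an adjusted p of 0.00194, Map2k1 by 3.52 ± 0.42 with 0.0110, and Mapk3 by -2.30 ± 0.42 with 0.0430 (limma). This contrast shares its WT_FGO libraries with control maturation, so the pair of results is not independent. Of all tested genes, 3.85% were called in it, 2.86% higher and 0.998% lower, and 4 of the 7 had an unadjusted p under 0.05, against 19.9% of all. The median difference in this contrast was -1.62 for the 7 and -0.53 for all. With the 2 kinases at 0 in Treat_MII set to their bound or left out, the median of the kinases was 0.05.

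The treated-maturation calls depended on the libraries in the fit and, for Mapk3, on the scaling. Without WT_FGO replicate 2 Mos differed by 5.67 with an adjusted p of 0.00434. Mos was at 0.0549 and 0.0581 without WT_MII replicate 1 and without WT_MII replicate 2. Map2k1 was at 0.0619 to 0.143 without either WT_FGO or either Treat_MII library. Mapk3 passed without WT_FGO replicate 2 (0.0399) and missed without any other library (0.0534 to 0.118), and missed with the replicate number as a block (0.0785). With each library centred on its median log2 ratio the Mapk3 difference was -1.96 and also missed (0.0919), which left 2 of the 7 called.

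**Figure D4:**
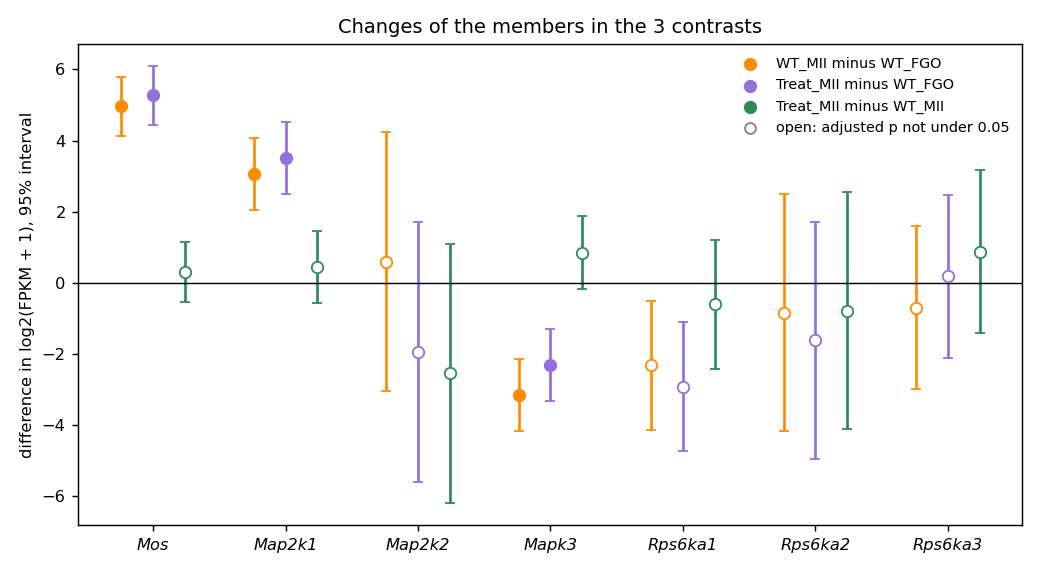
Difference in log2(FPKM + 1) of each kinase with its 95% interval (limma) in the 3 contrasts, filled where the adjusted p was under 0.05. The filled points are Mos, Map2k1 and Mapk3 in both contrasts against WT_FGO, and every interval of the treatment contrast crosses 0.

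The mRNA ends were examined because dormant oocyte mRNAs are activated by lengthening of their poly(A) tail. The nuclear polyadenylation hexamer (AATAAA or ATTAAA, searched on the mRNA strand in the last 150 bases of the 3′-UTR) began 22 bases from the annotated end of Mos, 21 from that of Map2k1 and 23 from that of Rps6ka1, and it was also present in Rps6ka2 (27) and Rps6ka3 (21). It was thus in the window of 5 of the 7 kinases, all but Mapk3 and Map2k2, against 80.3% of coding genes with a 3′-UTR that long. The Mos 3′-UTR is shorter than the window and was searched whole. The stretches below show it in capitals for the kinases that rose and for Rps6ka1, at chr4:3870661-3870690, chr9:64185773-64185802 and chr4:133847295-133847324, all on the minus strand.
Mos: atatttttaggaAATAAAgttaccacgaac
Map2k1: ctatcaagttaaAATAAAagggacaagaga
Rps6ka1: caaggcctttctAATAAActtacaatccag

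The cytoplasmic polyadenylation motifs TTTTAT and TTTTAAT, which do not overlap each other as written and bind the CPEB proteins, were found in the same window of 18.4% and 6.69% of coding genes. TTTTAT lay there in 1 of the 7 kinases, Rps6ka2, 15 bases from the end. Neither was in the 126 bases of the annotated Mos 3′-UTR. In Map2k1 they lay 426 and 765 bases from the end, outside the window. The absence says only that these letters are not in these windows.

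The G-quadruplex motif, 4 runs of 3 or more G separated by 1 to 7 bases on the mRNA strand, was found in 2 of the 7 kinases. Mapk3 had 1 in its 5′-UTR of 45 bases and 1 at the start of its coding sequence, and Rps6ka3 had 2 in its 5′-UTR and 1 in its 3′-UTR. Of all coding genes, 6.56% had it in the 5′-UTR, 3.57% in the coding sequence and 10.3% in the 3′-UTR, regions that differ in length between genes. Mos, Map2k1, Map2k2, Rps6ka1 and Rps6ka2 had none. The motifs are shown with the G runs in capitals, at chr7:126759603-126759628 and chr7:126759669-126759695 for Mapk3 and at chrX:159256060-159256076 for the first of Rps6ka3. A motif is a description of letters and not a measured rG4.
Mapk3, 5′-UTR: GGGGccgcGGGcGGGGcagcGGGGGG
Mapk3, coding sequence: GGGGGGcGGGGGcGGGGagcccaGGGG
Rps6ka3, 5′-UTR: GGGGcGGGtGGGGaGGG

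The surrounding ERK pathway was described from a list of 38 further genes, from the RAS GTPases to the phosphatases that switch ERK off. All 38 were in the table and 35 were tested, and 13 had no more than 3 reads in any library. During control maturation 3 of the 35 rose and 1 fell, against 3.67% and 3.09% of all tested genes. None was called for the treatment, and 2 rose between WT_FGO and Treat_MII, against 2.86% of all. The median maturation difference of the list was -0.01, and -0.02 with genes at 0 in a group set to their bound.

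Braf, a kinase that acts on MEK below the RAS GTPases, had 5 reads or fewer in every library and did not pass any test. Shc1, an adaptor that links receptors to RAS activation, was at 0 in both WT_FGO libraries and at 24.4 and 14.9 FPKM in WT_MII, at least 1.14-fold higher against a floor of 3 reads per library. It was called only narrowly (adjusted p = 0.0458, limma) and missed whichever library was left out (0.0728 to 0.141). In Treat_MII Shc1 was at 5.21 and 10.4 FPKM.

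Dusp1 encodes a phosphatase that switches MAP kinases off. It was at 0 in both WT_FGO libraries, at 86.2 and 149 FPKM in WT_MII, and at 131 and 121 FPKM in Treat_MII, at least 4.69-fold higher in WT_MII and at least 5.05-fold higher in Treat_MII. The adjusted p was 0.00320 and 0.00340 (limma), 0.0125 and 0.0124 without WT_FGO replicate 2, and 0.104 for maturation without Treat_MII replicate 1 or without Treat_MII replicate 2. Of the 11 inhibitors 8 were tested, none besides Dusp1 was called, and 6 had no more than 3 reads in any library.

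Mknk1 encodes MNK1, an ERK-activated kinase that phosphorylates the cap-binding factor eIF4E. It was at 0 in WT_FGO, at 34.1 and 41.7 FPKM in WT_MII and at 19.4 and 46.6 FPKM in Treat_MII, at least 1.58-fold higher in WT_MII and at least 1.38-fold higher in Treat_MII. The adjusted p of 0.0175 for maturation (limma) rose to between 0.0872 and 0.116 when any WT_MII or Treat_MII library was left out, and was 0.0480 without WT_FGO replicate 2. For the treated contrast it was 0.0271, and it missed whichever library was left out (0.0577 to 0.152).

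Cpeb1, the protein that binds the cytoplasmic polyadenylation motif and is itself degraded after MAPK and CDK1 activation, had 579 and 658 FPKM in WT_FGO, 155 and 205 in WT_MII, and 363 and 275 in Treat_MII. Cpeb1 fell by 1.79 ± 0.31 (SE) with an adjusted p of 0.0269 (limma), and missed whichever library was left out (0.0650 to 0.118). With median centring the Cpeb1 difference was -1.32 and did not pass (0.0771), nor did it pass without the variance trend (0.200). The Treat_MII values lay between the others without overlap, with a treatment difference of 0.82 and an adjusted p of 0.836.

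Fbxo43 encodes Emi2, an inhibitor of the anaphase-promoting complex. It had 0 and 24.2 FPKM in WT_FGO, 221 and 295 in WT_MII, and 201 and 240 in Treat_MII. Both metaphase II groups lay above WT_FGO. The difference of 5.67 ± 1.40 (SE) did not pass the test (adjusted p = 0.0707, limma), and passed without WT_FGO replicate 1 (3.34, adjusted p = 0.0211) and without WT_FGO replicate 2 (adjusted p = 0.00395). It also passed with median centring (0.0284), quantile normalization (0.0401), the replicate block (0.0437) and a mean of at least 5 FPKM (0.0488). Voom on recovered reads (3.96e-06) and the minimum of 60 reads (0.0219) passed it too. The Fbxo43 difference missed with only the compared groups, without the trend and with no filter. It missed as well without either WT_MII library and without either Treat_MII library.

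**Figure D5:**
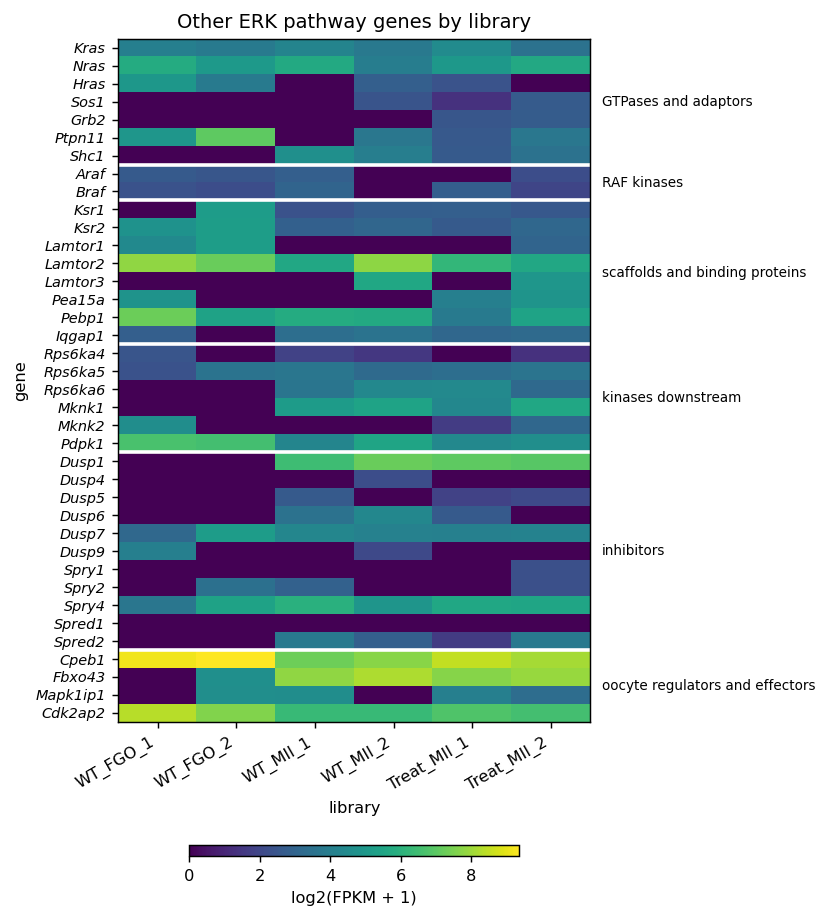
Footprint level as log2(FPKM + 1), shown by colour, of the 38 other ERK pathway genes (vertical axis, grouped by role) in the 6 libraries (horizontal axis). Dusp1 and Mknk1 are at 0 in both WT_FGO libraries and present in the other 4, and Cpeb1 is brightest in WT_FGO.

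The genes whose profile over the 6 libraries was most like that of Mos, by Pearson's r of log2(FPKM + 1) among 6369 genes, were Bcl2l10, Oosp3, Cdc20, Obox2 and Oosp1, with r from 0.9987 for Oosp1 to 0.9997 for Bcl2l10. The 6 points share their libraries, and the profile is mostly a step from 2 low to 4 high values, so many genes can score near 1. Bcl2l10, a member of the Bcl-2 family of apoptosis regulators, had 204 and 391 FPKM in WT_FGO, 9500 and 13287 in WT_MII, and 13148 and 12886 in Treat_MII. Cdc20, an activator of the anaphase-promoting complex, had 7.08 and 12.5 FPKM in WT_FGO, 340 and 344 in WT_MII, and 425 and 448 in Treat_MII. Oosp1 and Oosp3 encode oocyte-secreted proteins and Obox2 an oocyte homeobox protein.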

How the data were processed

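Ribo-lite libraries of 500 pooled oocytes were sequenced. The deposited values were FPKM, which the authors computed per library on mm10, with cutadapt 1.14, Bowtie2 2.2.2 and STAR 2.5.3a named in the submitters' processing notes. The counting program, its annotation, strand setting and use of molecular identifiers are not given in the sources used here. No spike-in scaling is stated, so each value is relative to its own library.

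A repeated gene name was kept once, by its highest mean (26 entries left out). Reads were recovered by multiplying FPKM by the coding length of GENCODE M21: with a tolerance of 0.02 reads, 98.4% of 21937 genes came out whole in all 6 libraries. The median tested gene had 13 reads in the 6 libraries together, which limits precision. The floor was 3 reads per library. The exact intervals of read rates and the floors cover counting error only. They treat every read as independent, which PCR copies are not, so they may be too narrow even for that error.

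log2(FPKM + 1) of the 15129 genes averaging 1 FPKM or more was fitted with limma 3.58.1 (R 4.3.3; lmFit, eBayes with trend) over all 6 libraries and 3 groups. Benjamini-Hochberg adjustment ran over all tested genes, with calls under 0.05. Differences on this scale can understate the change of low genes that have reads in both groups. For a group at 0 they rest on the 1 FPKM added, which is less than 1 read in 1 kb, and can overstate the change. The Dusp1 maturation difference was 6.84 as reported, 10.1 with a pseudocount of 0.1 and 4.84 in voom on recovered reads. An exact permutation test of 2 against 2 libraries cannot give a p below 0.333 and was not used. The study calls the libraries of a group biological replicates, but the sources used here do not say whether they came from separate animals, so p-values measure only the spread between these libraries, which may in part be technical. In data simulated for the maturation contrast (14545 genes), 74% of 100 genes changed 8-fold and 96% of 100 changed 32-fold were recovered. The changed genes were drawn only from those with at least 60 recovered reads, and every gene was given the same assumed spread. These shares therefore do not hold for genes with fewer reads, which include the median tested gene.

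The 7 kinases, the gene lists and the tests were chosen with earlier results of these data known. Named beyond the 7 are Braf, Cpeb1 and Fbxo43, every other gene of the wider list that was called, and the 5 genes most like Mos. A few genes of the pathway are not reported here. Alternatives were a pseudocount of 0.1, no filter, a mean of at least 5 FPKM, median centring, quantile normalization, a replicate block, only the compared groups, no trend, voom on recovered reads, and leaving out each library. A minimum of 60 recovered reads was added after seeing the data.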

Additional observations from a re-analysis of the deposited data

How the results depend on the processing

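Over 16 alternatives the maturation differences kept their direction for Mos (4.56 to 5.42), Map2k1 (2.61 to 3.53), Mapk3 (-3.29 to -2.69) and Rps6ka1 (-2.47 to -1.85), and no call changed direction. The adjusted p ranged from 4.61e-11 to 0.116 for Mos, 0.000469 to 0.151 for Map2k1 and 6.59e-05 to 0.116 for Mapk3. The median of all genes at maturation was -0.44 as reported, 0.02 with median centring and -0.03 with quantile normalization. Of the 1023 maturation calls, 555 were higher and 468 lower, against 758 and 305 with median centring. The cause of the changed counts below was not tested, except that fits of fewer libraries have fewer samples to estimate the spread.

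With only the compared groups, maturation gave 0 calls, 0 among the 7 kinases and 0 in the wider list, and treated maturation gave 32, 0 and 0. Without the trend, maturation gave 328, 1 and 2, and treated maturation 59, 0 and 1. Voom on recovered reads gave 2378 genes and 8 of the wider list at maturation, 165 genes for the treatment (65 higher, 100 lower), and 2834 and 8 for treated maturation (reported as 583 and 2). A mean of at least 5 FPKM gave 7 of the wider list at maturation, against 4. A minimum of 60 reads gave 1146 genes and 4 of the wider list for treated maturation.

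Leaving out each library in turn gave 0 to 1842 calls at maturation, with 0 to 3 of the 7 kinases and 0 to 4 of the wider list. It gave 0 to 418 calls for the treatment, with 0 of the 7 and 0 to 1 of the wider list, and 139 to 1605 for treated maturation, with 1 to 2 and 1 to 4. At maturation the counts of 0 came with only the compared groups and without Treat_MII replicate 1 or replicate 2 (limma), where 2858, 2903 and 2907 genes had an unadjusted p under 0.05, 4 of the 7 kinases each time. A group left with 1 library is assumed to vary like the others.

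No pairing of libraries by their number was assumed, since the correlation of their deviations from their group's mean was 0.0342, 0.0176 and 0.0189 over 2706 genes in the 3 pairs of groups. With the replicate block, the counts were 788, 0 and 437 for maturation, treatment and treated maturation, with 3, 0 and 2 of the 7 kinases and 4, 0 and 2 of the wider list. The few reads of Map2k2, Rps6ka2 and Rps6ka3 allow no statement on their change.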
